A study of Homo sapiens with 9 samples.

Results

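The enzymes described here pass one-carbon units between serine, folate and choline: PHGDH, SHMT1, SHMT2, MTHFD2, MTHFD1L, MTHFD1, TYMS and CHDH. These 8 genes, of 58096 gene identifiers and 18554 genes tested, were listed by their role. SHMT1 and CHDH were also listed for how they behaved in these libraries, SHMT1 for lower counts under the siRNA2 label and CHDH for higher counts under the siRNA1 label. For these 2 genes the values by label are therefore a description, and no test of them by label is read. All 8 passed the filter on low counts. The libraries are poly(A) RNA-seq of ALL-SIL, a human T cell acute lymphoblastic leukaemia (T-ALL) cell line that expresses the homeobox transcription factor gene TLX1. Cells were electroporated with 1 of 2 TLX1 siRNAs (groups siRNA1 and siRNA2) or with an siRNA labelled NTC, with 3 libraries in each of the 3 groups. Every group therefore shares the cell line, the medium and the electroporation, and the line is a single leukaemia. The labels do not say that replicates are separate cultures. The p-values therefore cover the variation among these libraries alone, which may be technical.

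Proliferating cells take one-carbon units mainly from serine. PHGDH opens the pathway that makes serine from a glycolytic intermediate, and SHMT2 in mitochondria or SHMT1 in the cytosol splits serine into glycine and a folate-bound one-carbon unit. In mitochondria MTHFD2 and MTHFD1L carry that unit to formate, which leaves for the cytosol. There MTHFD1 loads it onto folate again for purine and thymidylate synthesis, and TYMS, thymidylate synthase, spends it to make the DNA building block dTMP. CHDH, choline dehydrogenase, sits on another route: it oxidises choline in mitochondria toward betaine, whose methyl groups feed the methionine cycle and, through dimethylglycine and sarcosine, folate.

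The targeted gene did not follow its labels. TLX1 lay at 184, 167 and 183 CPM in NTC replicates 1, 2 and 3 (CPM, a gene's counts per library scaled to a common total with edgeR's TMM factors, is the unit of all levels below unless another is named). Under the siRNA1 label it stood at 406, 457 and 387 CPM, and under the siRNA2 label at 198, 231 and 179 CPM. Each of the siRNA1 libraries thus exceeded every other library in TLX1, and no difference below is read as an effect of lowering it. Libraries held from 58305492 to 99524663 gene counts. Of 9 T cell markers, 8 were above 1 CPM, with TRAC, the T cell receptor alpha constant gene, below it. Of 3 erythroid, 4 epithelial and 4 myeloid markers none averaged 1 CPM. The summed level of 4 B cell markers was 10.7 to 23.7 CPM and that of 3 fibroblast markers 12.8 to 24.6 CPM, nearly all of it PDGFRB. PDGFRB was called lower by edgeR in replicate 1 (log2 -0.50, adjusted p = 6.90e-06) and, with the replicate number in the model, under siRNA1 against NTC (log2 -0.33, adjusted p = 0.00352). Its part in the results below was not tested.

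The promoters of SHMT1 and CHDH, the 2 genes listed for their levels by label, are shown first, with letters marked that are common in human promoters. Each runs from 250 bases before to 50 bases after the RefSeq start, on GRCh38.p14, read 5′ to 3′ on the gene's own strand. SHMT1 (ENSG00000176974.18) is on the minus strand, and its window is chr17:18363501-18363800. CHDH (ENSG00000016391.10) is on the minus strand too, and its window is chr3:53846370-53846669. Capitals mark the GC box (GGGCGG on either strand) and the CCAAT box (CCAAT on either strand).
SHMT1: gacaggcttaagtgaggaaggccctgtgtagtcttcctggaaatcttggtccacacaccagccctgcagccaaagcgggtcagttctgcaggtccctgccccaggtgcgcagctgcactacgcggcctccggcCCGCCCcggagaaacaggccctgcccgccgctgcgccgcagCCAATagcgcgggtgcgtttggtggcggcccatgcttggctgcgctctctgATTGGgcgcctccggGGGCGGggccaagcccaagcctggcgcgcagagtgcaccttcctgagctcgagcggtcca
CHDH: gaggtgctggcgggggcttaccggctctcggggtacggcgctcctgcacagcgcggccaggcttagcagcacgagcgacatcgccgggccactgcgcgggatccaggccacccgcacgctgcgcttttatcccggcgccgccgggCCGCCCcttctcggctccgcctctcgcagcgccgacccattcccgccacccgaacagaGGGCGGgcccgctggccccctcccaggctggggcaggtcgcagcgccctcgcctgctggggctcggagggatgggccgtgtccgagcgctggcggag
Both windows hold a pair of GC boxes, and SHMT1 alone of them also holds a pair of CCAAT boxes. The GC box was in 45.0% of the 35116 promoter windows of that length in RefSeq's table, and the CCAAT box in 34.6%, so neither is rare. Of the 7 members in the table, 3 held a GC box (CHDH, MTHFD1L and SHMT1) and 5 a CCAAT box (MTHFD1, MTHFD1L, MTHFD2, PHGDH and SHMT1). SHMT2 is not in the table. The E-box CACGTG, searched on both strands, was in 7.26% of all windows and in MTHFD1 and MTHFD1L. The letters TGATGNAAN, an element bound by ATF4 and its partners, were in 3.61% of all windows and in MTHFD1L. These matches are letters and not shown binding sites. The CHDH window was GC-rich at 75.7% with 38 CpG pairs and that of SHMT1 had 68.0% with 23, against a median over all windows of 58.7% and 14.

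SHMT1, the cytosolic serine hydroxymethyltransferase, was lowest in the libraries labelled siRNA2. It lay at 114, 79.3 and 95.5 CPM in NTC replicates 1, 2 and 3, at 119, 88.3 and 91.2 CPM under the siRNA1 label and at 68.2, 48.5 and 62.4 CPM under the siRNA2 label. Every siRNA2 library was below every NTC and every siRNA1 library, and NTC and siRNA1 overlapped. Within a replicate number the siRNA2 library held 0.599, 0.611 and 0.653 of the NTC level. The log2 fold change was -0.69 for siRNA2 against NTC, 0.05 for siRNA1 against NTC and 0.74 for siRNA1 against siRNA2.

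SHMT2, which runs the same reaction in mitochondria, differed little by label. Its levels were 172, 151 and 188 CPM in NTC, 164, 145 and 163 CPM under siRNA1 and 163, 149 and 156 CPM under siRNA2, and all 3 groups overlapped. As shares of the NTC level of the same replicate number, siRNA1 stood at 0.957, 0.959 and 0.868 and siRNA2 at 0.952, 0.985 and 0.832. SHMT2 was not called against NTC in an edgeR fit that compared libraries within replicate numbers. The log2 difference of siRNA2 from NTC was -0.12 (95% interval -0.33 to 0.08, adjusted p = 1.00 by edgeR's quasi-likelihood test). Per length, SHMT2 was the higher of the pair in all 9 libraries. The ratio of SHMT2 to SHMT1 in TPM, transcript counts per length scaled to 1 common total, over exon bases that no other gene covers, was 2.87 ± 0.40 in NTC, 2.56 ± 0.33 under siRNA1 and 4.25 ± 0.58 under siRNA2 (SD, n = 3 each). Dividing by the longest transcript instead gave ratios of 1.45, 1.29 and 2.14, because SHMT1 has many annotated exon bases outside its longest transcript. The ratio is a description, since the choice of SHMT1 used the level that moved it.

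CHDH was highest in the libraries labelled siRNA1. It lay at 12.2, 9.27 and 6.14 CPM in NTC, at 38.9, 24.8 and 19.9 CPM under siRNA1, and at 11.1, 7.77 and 4.50 CPM under siRNA2. Every siRNA1 library was above every other library, while NTC and siRNA2 overlapped. These levels rest on 271 to 3662 reads per library. The siRNA1 library held 3.19, 2.68 and 3.25 times the NTC level of its replicate number. The log2 fold change was 1.60 against NTC and 1.84 against siRNA2, and it was -0.23 for siRNA2 against NTC. The libraries in which CHDH was high are those in which TLX1 was high against its label, and the part of either in the other was not tested.

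CHDH has an antisense neighbour. CACNA1D, a calcium channel gene on the opposite strand, shares 18.0% of the exon bases of CHDH, and the libraries do not mark strand. CACNA1D lay at 12.1, 11.7 and 8.45 CPM in NTC, at 25.5, 18.1 and 16.4 CPM under siRNA1 and at 14.6, 10.2 and 7.71 CPM under siRNA2. It was thus high in the same libraries as CHDH. Against NTC its log2 difference under siRNA1 was 0.90 (95% interval 0.39 to 1.40, adjusted p = 0.107 by edgeR). Comparing libraries within each replicate number, by adding the number to the model as a block, it was 0.88 (adjusted p = 4.56e-07 by edgeR). The strand columns together held 1.08 to 1.23 times the unstranded reads of CHDH over the libraries, and reads from CHDH transcripts and from CACNA1D transcripts cannot be told apart in those bases. The ratio was lower in each siRNA1 library than in every NTC and siRNA2 library. Any part of CACNA1D in the CHDH count was not tested.

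**Figure D1:**
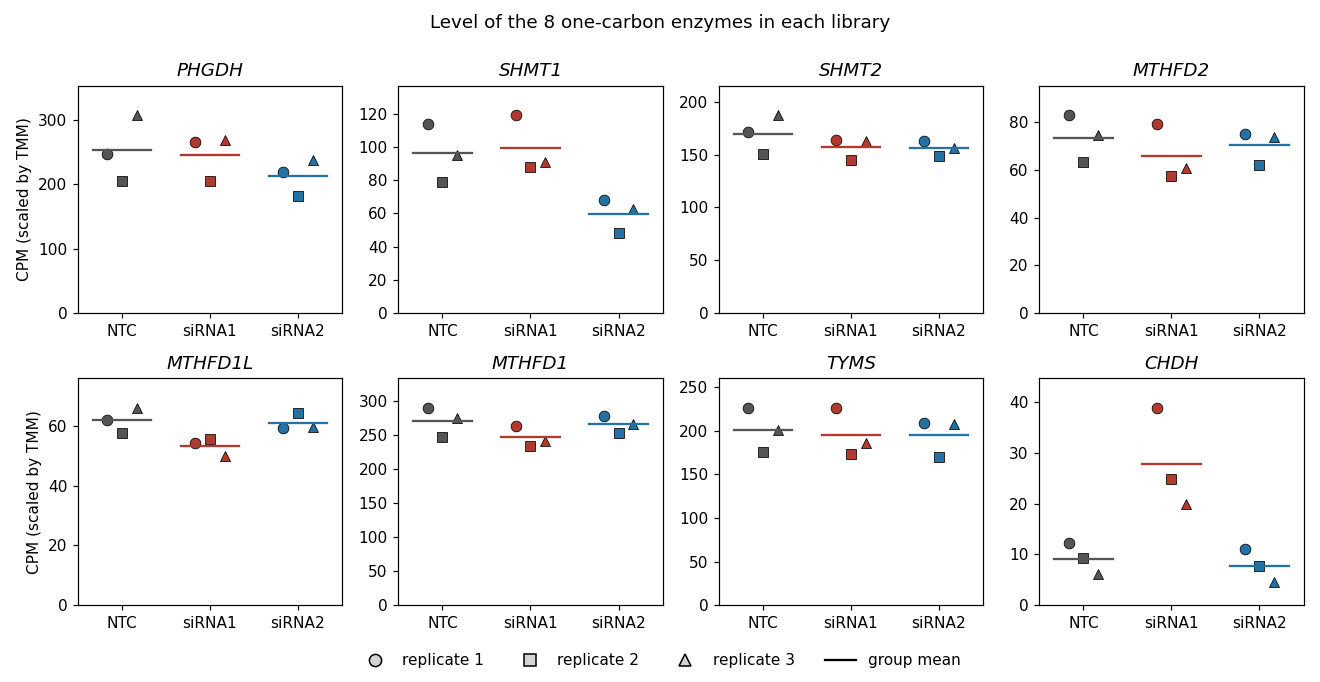
Level of each enzyme in CPM scaled by TMM (vertical axis, from 0) in the 9 libraries by label, with the symbol showing the replicate number and the line the group mean. SHMT1 is low in all 3 siRNA2 libraries and CHDH is high in all 3 siRNA1 libraries, while the other 6 enzymes lie close across labels and replicate 2 is often their lowest point.

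PHGDH, the entry to serine synthesis, passed edgeR's test against NTC under neither label, with or without the replicate block. It lay at 247, 206 and 308 CPM in NTC, at 265, 205 and 269 CPM under siRNA1 and at 220, 182 and 238 CPM under siRNA2, with all groups overlapping. As shares of the NTC level of the same replicate number, siRNA1 stood at 1.08, 0.998 and 0.873 and siRNA2 at 0.891, 0.888 and 0.772. PHGDH was thus below NTC in every siRNA2 pair. Its log2 difference from NTC without the block was -0.04 under siRNA1 (95% interval -0.38 to 0.30) and -0.25 under siRNA2 (95% interval -0.58 to 0.09). Between the 2 TLX1 siRNA groups it was 0.21 higher under siRNA1 (95% interval -0.13 to 0.54, adjusted p = 0.753 by edgeR). Within replicate numbers that difference passed the test, with siRNA1 at 1.21, 1.12 and 1.13 times the siRNA2 level (log2 0.21, SE 0.07, adjusted p = 0.0449 by edgeR with the block). The other serine synthesis genes did not pass in either fit: PSPH, the phosphatase of the last step, lay between 26.0 and 32.4 CPM. PSAT1, the aminotransferase of the middle step, lay between 0.35 and 0.86 CPM, far below its neighbours in the pathway. PSAT1 has 4 annotated processed copies, and reads that fit several places may be missing from its count.

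Of 6 mitochondrial folate genes tested, MTHFD1L and MTHFD2 among them, 0 passed edgeR's test for siRNA1 against NTC with or without the block. Of all genes tested, 1.28% were called without the block and 11.4% with it, and 1903 had an unadjusted p under 0.05 without it. A count of 0 among 6 genes is near those shares, and nothing is read from it. MTHFD1L, which releases formate, lay at 62.0, 57.7 and 66.1 CPM in NTC, at 54.4, 55.7 and 49.9 CPM under siRNA1 and at 59.2, 64.3 and 59.6 CPM under siRNA2. Every siRNA1 library was below every library of the other groups. The log2 difference of siRNA1 from NTC was -0.22 (95% interval -0.40 to -0.03, adjusted p = 0.359 by edgeR), and with the replicate block the adjusted p was 0.0508. MTHFD2, the dehydrogenase and cyclohydrolase one step earlier, lay at 83.0, 63.3 and 74.5 CPM in NTC, at 79.2, 57.5 and 60.9 CPM under siRNA1 and at 75.1, 62.2 and 73.7 CPM under siRNA2. Its groups overlapped, and its log2 difference of siRNA1 from NTC was -0.16 (95% interval -0.45 to 0.14, adjusted p = 0.795 by edgeR). Within replicate numbers siRNA1 held 0.954, 0.909 and 0.818 of the NTC level of MTHFD2, and siRNA2 held 0.905, 0.983 and 0.989.

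In the cytosol, MTHFD1, which carries 3 folate activities, and TYMS, which consumes the product, had overlapping levels across labels. MTHFD1 lay at 291, 247 and 275 CPM in NTC, at 264, 234 and 242 CPM under siRNA1 and at 278, 253 and 266 CPM under siRNA2. TYMS lay at 227, 176 and 200 CPM in NTC, at 226, 174 and 186 CPM under siRNA1 and at 209, 170 and 207 CPM under siRNA2. Both overlapped in every pair of groups. For TYMS the log2 difference from NTC was -0.04 under either siRNA label, with 95% intervals of -0.32 to 0.23 under siRNA1 and -0.31 to 0.24 under siRNA2. For MTHFD1 it was -0.13 (95% interval -0.32 to 0.05) under siRNA1 and -0.03 (95% interval -0.22 to 0.16) under siRNA2. Within replicate numbers siRNA1 held 0.909, 0.948 and 0.880 of the NTC level of MTHFD1, and siRNA2 held 0.957, 1.03 and 0.967. Neither gene was called against NTC with the replicate block.

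Counted over all members, siRNA1 against NTC called 1 of 8, CHDH, at an adjusted p under 0.05, where 1.28% of all genes tested were called, and with the block again CHDH alone, where 11.4% were. Since CHDH was chosen on that contrast, nothing is read from the count. Leaving out 1 library gave log2 fold changes of CHDH from 1.29 to 1.85 over 9 fits. CHDH was called in 4 of these fits, and nothing is read from that. Against NTC, siRNA2 called 0 of 8 members, where 0% of all genes were called: edgeR and limma-voom called 0 genes and DESeq2 called 4, with 392 genes at an unadjusted p under 0.05 in edgeR. With the block, SHMT1 alone was called, where 0.151% of genes were, and it was chosen on that contrast. Between the siRNA groups 1 member was called, CHDH, where 1.08% of genes were, and with the block SHMT1, PHGDH and CHDH, where 10.6% were. SHMT1 and CHDH were chosen on their levels by label, so nothing is read from these counts either. Between the siRNA groups, leaving out 1 library gave log2 differences from 1.52 to 2.18 for CHDH and from 0.59 to 0.85 for SHMT1. CHDH was called in 6 of the 9 fits and SHMT1 in 1, from which nothing is read. Groups did not overlap for 2 members (CHDH and MTHFD1L) in siRNA1 against NTC, where 15.8% of all genes did not overlap. In siRNA2 against NTC 1 member (SHMT1) did not overlap, where 5.58% of genes did not. The siRNA groups did not overlap for SHMT1, MTHFD1L and CHDH, where 14.4% of genes did not. The siRNA1 and siRNA2 comparisons share the NTC libraries.

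**Figure D2:**
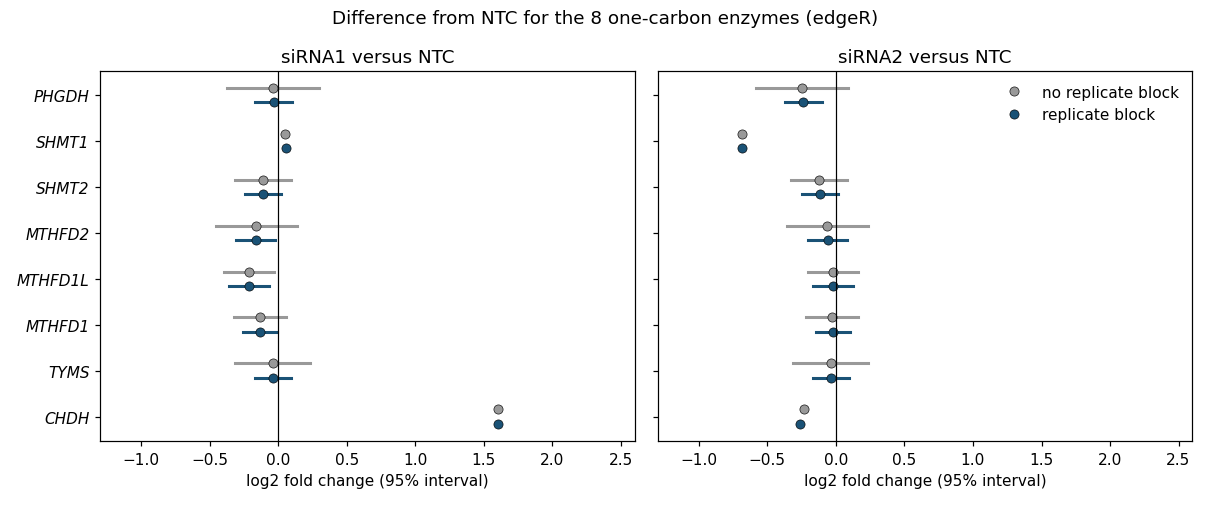
Log2 fold change of each enzyme against NTC (horizontal axis) for siRNA1 (left) and siRNA2 (right), with 95% intervals without the replicate block (grey) and with it (blue). SHMT1 and CHDH were chosen on these values and are drawn as points without intervals, and the intervals of the other 6 narrow with the block around nearly the same estimates.

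Levels per length can be ordered, with the caution that they depend on the length used. Over all annotated exon bases and all 9 libraries, TYMS was highest at 288 ± 30.9 TPM (SD), followed by SHMT2 at 120 ± 11.2 TPM. MTHFD1 at 101 ± 7.43 TPM and PHGDH at 93.4 ± 16.7 TPM overlapped with each other and with the lower SHMT2 libraries. MTHFD2 at 51.8 ± 6.41 TPM, MTHFD1L at 42.3 ± 3.81 TPM and SHMT1 at 42.1 ± 10.7 TPM overlapped as well. CHDH was lowest at 6.87 ± 4.95 TPM, a spread that is mostly its difference between labels. With the longest transcript as length, PHGDH moved up the order at 203 TPM and SHMT1 at 83.6 TPM, so the middle ranks are not settled by these data.

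The level of TYMS is understated by the counting. ENOSF1, which lies on the opposite strand, covers 39.1% of the exon bases of TYMS. The sum of the strand columns held 3.01 times the unstranded reads of TYMS (2.73 to 3.19 over the libraries), 1.44 times those of MTHFD2, which shares 27.2% of its bases with SLC4A5, and 1.33 times those of MTHFD1. The ratio was 1.09 for SHMT1 and SHMT2 and 1.00 for MTHFD1L and PHGDH, which share no exon bases with another gene. MTHFD2, TYMS, SHMT1 and MTHFD1 also have 7, 2, 1 and 1 annotated pseudogene copies, none of which averaged above 0.18 CPM. Over all genes tested the median was 1.00, and 8.69% of genes were above 2. Reads of TYMS and of ENOSF1 cannot be told apart in the bases they share, so the strand-column sum for TYMS may hold ENOSF1 reads. Over the bases that no other gene covers, TYMS stood at 497 TPM. With the strand columns in place of the unstranded count, no call on a member by label changed.

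**Figure D3:**
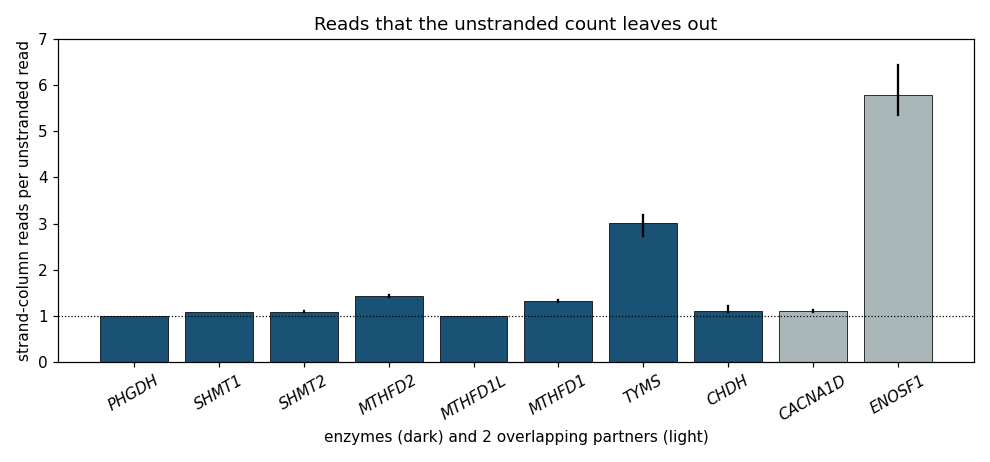
Reads of the 2 strand columns together per unstranded read (vertical axis, from 0) for the 8 enzymes (dark) and for CACNA1D and ENOSF1, which overlap CHDH and TYMS (light); bars give the ratio of totals and lines the range over the 9 libraries. TYMS reaches 3.01 and ENOSF1 5.78, while MTHFD1L and PHGDH stay at 1 (dotted line).

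Members also differed by replicate number, a contrast that was not used to choose them. Replicate 1 against the mean of replicates 2 and 3, with the siRNA group in the model, called 4 of 8 members, all higher, where 21.3% of all genes were called and 10.9% were called higher. CHDH rose by 0.79 on the log2 scale (SE 0.07, adjusted p = 6.48e-08 by edgeR) and SHMT1 by 0.37 (SE 0.06, adjusted p = 7.63e-05 by edgeR). MTHFD2 rose by 0.28 (SE 0.06, adjusted p = 0.00136 by edgeR) and TYMS by 0.25 (SE 0.05, adjusted p = 0.00177 by edgeR). CHDH, SHMT1, MTHFD1, MTHFD2 and TYMS were highest in replicate 1 in every group, where 13.1% of all genes were. The others were not called: MTHFD1 differed by 0.14 (95% interval 0.03 to 0.24, adjusted p = 0.0634 by edgeR), PHGDH by 0.08 (95% interval -0.04 to 0.19), SHMT2 by 0.07 (95% interval -0.04 to 0.19) and MTHFD1L by -0.01 (95% interval -0.13 to 0.12). Without siRNA1 replicate 1 the count fell to 2, as MTHFD2 (adjusted p = 0.0761) and TYMS (adjusted p = 0.0616) were no longer called by edgeR, and without siRNA2 replicate 3 MTHFD1 joined at an adjusted p of 0.0316.

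Replicate 2 was the lowest of the 3 numbers in every group for 6 of 8 members (PHGDH, SHMT1, SHMT2, MTHFD2, MTHFD1 and TYMS), where 12% of all genes were. This pattern was noticed after the values were seen and is given without a test. MTHFD1L had no fixed order, and CHDH was lowest in replicate 3 in every group. Values of 12 genes of dividing cells are given beside it. RRM2, a subunit of ribonucleotide reductase, averaged 543, 272 and 366 CPM in replicates 1, 2 and 3. CCNB1, the cyclin of mitotic entry, ran the other way at 94.2, 203 and 139 CPM. Of the 12 genes, 5 were called higher in replicate 1 (RRM2, MCM2, MCM3, MCM4 and PCNA) and 2 lower (CCNB1 and TOP2A). The summed level of that list was 8476 to 8891 CPM in replicate 1, 7826 to 8081 CPM in replicate 2 and 7740 to 8478 CPM in replicate 3. The summed level of 4 B cell markers also moved with the number, at 20.4 to 23.7 CPM in replicate 1 and 10.7 to 15.8 CPM in replicates 2 and 3, and of that list MS4A1 had 1 read in all 9 libraries together. The part of these genes in the members' differences was not tested, and what a replicate number stands for is not in the labels.

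**Figure D4:**
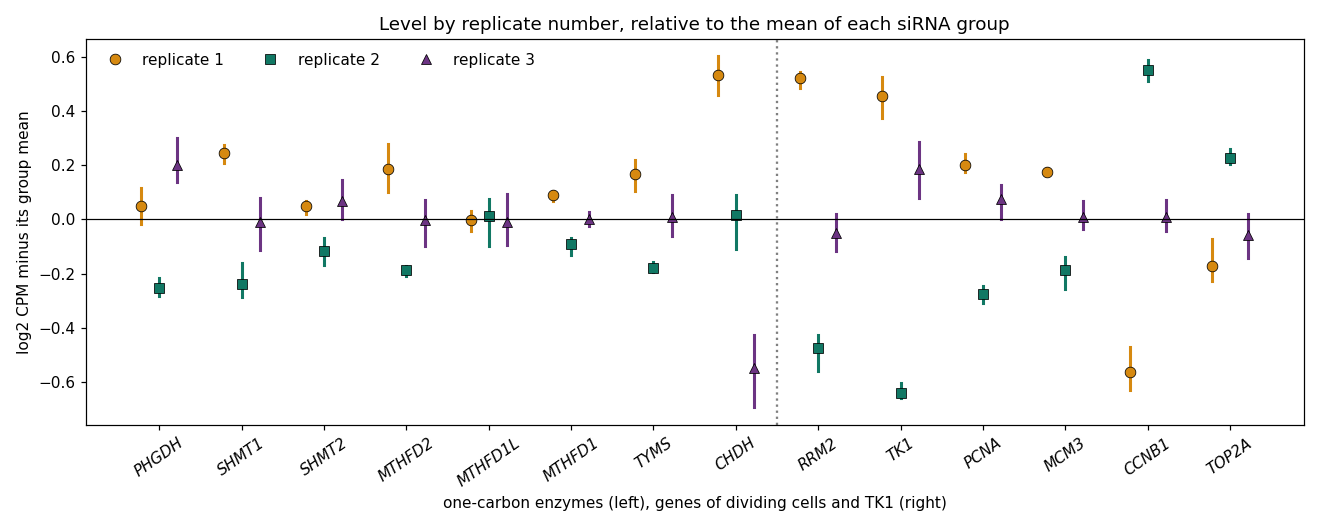
Log2 CPM of each gene minus the mean of its siRNA group (vertical axis), by replicate number; symbols are means over the 3 groups and lines the range over them. Replicate 2 (green squares) lies below 0 for 6 enzymes and for RRM2, TK1, PCNA and MCM3, and above 0 for CCNB1 and TOP2A, while CHDH is highest in replicate 1 and lowest in replicate 3.

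The wider network, 55 genes grouped by role, held 45 that were tested, the 8 members among them. Among those not tested was BHMT, betaine-homocysteine methyltransferase, at a mean of 0.04 CPM with at most 9 reads in a library. Against NTC, siRNA1 called 1 gene higher (CHDH) and 1 lower, and the median log2 difference of the 45 was -0.07 against 0.01 over all genes. The gene called lower was SARDH, sarcosine dehydrogenase, which returns the last methyl group of the choline route to folate. SARDH lay at 74.1, 79.1 and 91.9 CPM in NTC, between 58.1 and 60.3 CPM under siRNA1 and at 80.5, 74.2 and 69.7 CPM under siRNA2. The siRNA1 libraries were below all others. Its log2 difference from NTC was -0.46 (SE 0.09, adjusted p = 0.0371 by edgeR), and the call ended without NTC replicate 2 or 3 or without any 1 of the siRNA1 libraries, with adjusted p up to 0.179. In a fit of these 2 groups alone the adjusted p was 0.0522. With the replicate block SARDH stayed called (adjusted p = 2.15e-04 by edgeR), and 3 more genes were called lower. In all 5 of 45 network genes were then called, or 11.1%, a share near the 11.4% of all genes. CHDH, chosen on this contrast, is among the 5. Without the members 4 of 37 were called, or 10.8%. The 3 were DUT, the dUTPase that keeps uracil out of DNA, by 0.24 on the log2 scale, GART, a purine synthesis enzyme that takes formyl-folate, by 0.24, and SLC44A1, a choline transporter, by 0.21.

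For siRNA2 against NTC no network gene was called, and the median was 0.00 both over the network and over all genes. With the block SHMT1, chosen on this contrast, was the 1 gene called. DMGDH, dimethylglycine dehydrogenase, and PDPR, a regulator of pyruvate dehydrogenase phosphatase related to it, passed the test in neither comparison. Between the siRNA groups the block called 1 of the 37 network genes that are not members higher under siRNA1 (TK1, the thymidine salvage kinase) and 3 lower (SARDH, GART and SLC44A1), where 5.29% and 5.27% of all genes were called in each direction. Of the members it called PHGDH, and SHMT1 and CHDH, which were chosen on the labels.

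By replicate number 10 of the 45 network genes were higher in replicate 1 and 3 lower, where 21.3% of all genes were called and 10.9% were called higher. Without the members 6 of 37 were higher and 3 lower, 24.3% in all, which is near the share of all genes. Beside the 4 members, the higher genes included TK1 by 0.68 on the log2 scale, CTH, the transsulfuration lyase, by 0.73, GCSH of the glycine cleavage system by 0.41, DUT by 0.20 and PDPR by 0.17. The lower genes were DMGDH at -0.56, GNMT, glycine N-methyltransferase, at -0.40 and MAT2B, a subunit of methionine adenosyltransferase, at -0.23. CTH stayed under 1 CPM throughout, and GCSH has 5 annotated pseudogene copies. The thymidylate list, TYMS, TK1, DUT and DCTD, had 3 of its 4 genes called higher, TYMS among them. Calls of GCSH and DMGDH ended without NTC replicate 1, that of MAT2B without siRNA2 replicate 1, and those of GNMT, DUT and PDPR in 2, 3 and 4 of the 9 fits that left out 1 library.

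**Figure D5:**
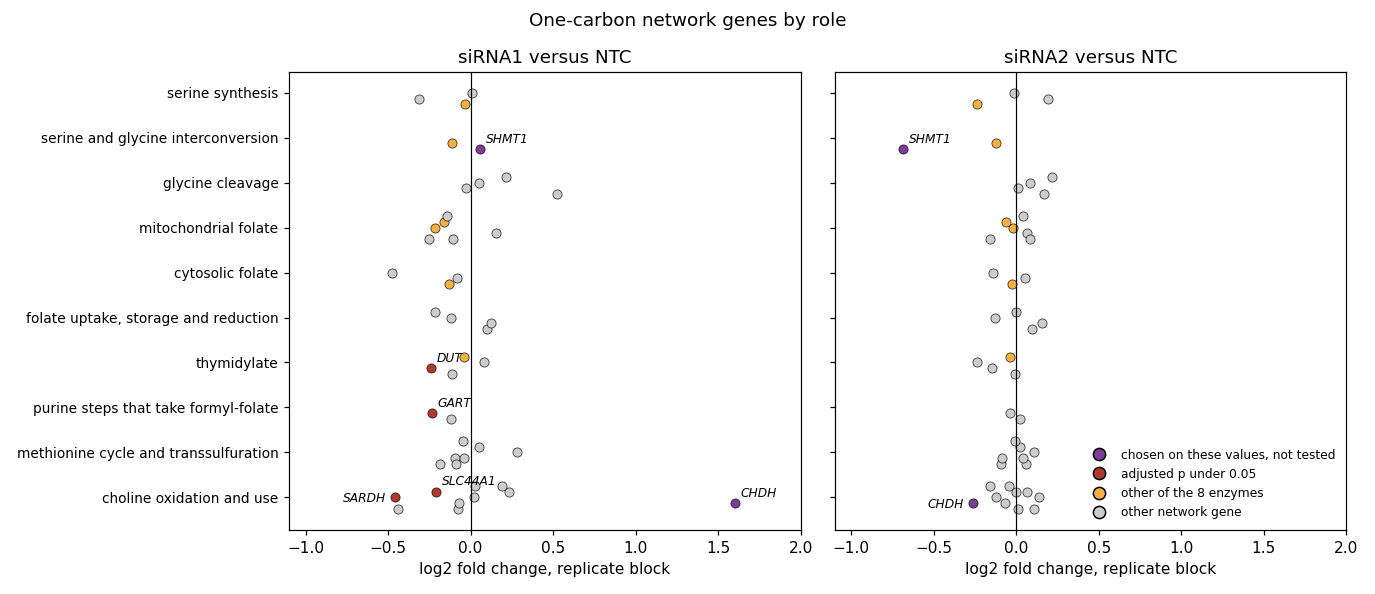
Log2 fold change against NTC with the replicate block (horizontal axis) for tested genes of the one-carbon network, by role (rows), for siRNA1 (left) and siRNA2 (right); each point is a gene, spread within a row for visibility. SARDH, GART, DUT and SLC44A1 were called lower under siRNA1 (red), none of the other genes passed the test under siRNA2, and SHMT1 and CHDH (purple) were chosen on these values.

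Genes with the most similar profile to a member were found by the root mean square difference between centred log2 CPM values over the 9 libraries, among 12554 genes with a mean of at least 1 CPM. For SHMT1 they were WSB2 (difference 0.19), LMNA (0.19) and EZR (0.21). The root mean square of the centred SHMT1 profile itself was 0.39. EZR, the membrane linker ezrin, averaged 334 ± 19.8 CPM in NTC, 334 ± 16.0 CPM under siRNA1 and 251 ± 8.39 CPM under siRNA2 (SD, n = 3 each). For CHDH they were CACNA1D (0.44), MMP25 (0.45) and CXCR3 (0.50), where the root mean square of the centred CHDH profile was 0.94. CXCR3, a chemokine receptor, averaged 1.87 ± 0.43 CPM in NTC, 7.25 ± 1.25 CPM under siRNA1 and 2.47 ± 1.23 CPM under siRNA2 (SD, n = 3 each). The nearest gene was NIPSNAP1 for SHMT2, RPIA for MTHFD1, MALSU1 for MTHFD1L and TMEM141 for PHGDH. MTHFD2 and TYMS shared the same nearest gene, DIAPH3, with differences of 0.04 and 0.04.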

How the data were processed

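Poly(A) RNA of 9 libraries was counted per gene. The authors deposited raw counts, whole numbers of reads in 1 unstranded and 2 strand columns with 4 summary lines, which were left out (22.4% to 24.5% of reads). GRCh38 is the build named in the submitters' processing notes, and no source used here names the aligner. The kit does not mark strand, per the labels' protocols, so the unstranded count was used. Of 58096 identifiers 57492 matched GENCODE 29. edgeR 4.0.16 (R 4.3.3) tested 18554 genes (filterByExpr, minimum count 10, total 15; TMM; quasi-likelihood; Benjamini-Hochberg over all genes; threshold 0.05) in 1 fit of all 3 groups, on simulated data checked first. Alternatives were RLE factors, no filter, DESeq2 1.42.0, limma-voom 3.58.1, strand columns, 2 groups only, a replicate block, and leaving out libraries. Replicate numbers paired the libraries: deviations from group means correlated at 0.38 to 0.62 for the 9 pairs of the same number, and at -0.45 to 0.07 otherwise. Deviations within a group cancel, so positive values at the same number push the others below 0. The second range therefore adds no separate support. Named network genes passed the test, up to 4 per role and comparison. Members and lists were chosen with earlier results of these data known.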

Additional observations from a re-analysis of the deposited data

Results flagged for a closer look

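The siRNA1 and siRNA2 groups differed from each other, by edgeR's test of that difference, for 7 of 45 network genes when libraries were compared within replicate numbers, where 10.6% of all genes were called. Without the 8 enzymes 4 of 37 were called, or 10.8%, a share near that of all genes. On the log2 scale, siRNA1 minus siRNA2, these differences were 0.74 for SHMT1, 1.86 for CHDH, 0.21 for PHGDH, 0.32 for TK1, -0.20 for GART, -0.33 for SARDH and -0.21 for SLC44A1. Without the replicate block the value for CHDH was 1.84. SHMT1 and CHDH were chosen on the labels, so their differences are descriptions. TK1 lay at 251, 115 and 208 CPM under siRNA1 and 210, 95.9 and 154 CPM under siRNA2 in replicates 1, 2 and 3, so that each siRNA1 library was above the siRNA2 library of its number.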

How the results depend on the processing

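The replicate block called 2117 genes for siRNA1, 28 for siRNA2 and 1958 between them, 1, 1 and 3 members and 5, 1 and 7 network genes; it changed no other call on a member. Without a filter 590, 15 and 557 genes were called, with 1 member and 1 network gene for siRNA2 and 2 and 2 between siRNAs. All member and network counts by label in this paragraph cover SHMT1 and CHDH. These genes were chosen on the labels, so nothing is read from the counts. DESeq2 called 553, 4 and 522 genes, with 2 members and 3 network genes between siRNAs. Fits of 2 groups called 117 genes between siRNAs and 1 network gene for siRNA1. Without the 3 replicate 1 libraries, an alternative chosen after seeing the data, 75 genes, 33 between siRNAs and 1 network gene for siRNA1 were called. With no group term the replicate contrast called 1634 genes, 2 members and 8 network genes. Leaving out 1 library gave 103 to 253 genes for siRNA1, 0 to 0 for siRNA2, 72 to 185 between siRNAs and 2023 to 4529 by replicate; 0 to 1, 0 to 0, 0 to 2 and 2 to 5 members; and 0 to 2, 0 to 0, 0 to 2 and 8 to 14 network genes.

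Several signs turned, none of them of a difference that had passed the test. TYMS turned with the strand columns (0.0017 for siRNA1, 0.010 between siRNAs), with no filter (0.0056 between siRNAs) and, with MTHFD1L, without the replicate 1 libraries for siRNA2 (0.0051 and 0.0012). Leaving out 1 library gave ranges across 0 for siRNA1 in SHMT1 (-0.10 to 0.19), PHGDH (-0.17 to 0.12) and TYMS (-0.16 to 0.053). For siRNA2 it did so in CHDH (-0.57 to 0.037), MTHFD1 (-0.090 to 0.027), MTHFD1L (-0.071 to 0.035), MTHFD2 (-0.16 to 0.030) and TYMS (-0.13 to 0.056), between siRNAs in SHMT2 (-0.022 to 0.068) and TYMS (-0.12 to 0.074), and by replicate in MTHFD1L (-0.048 to 0.044). Levels per length moved with the longest transcript for SHMT1 (83.6 TPM), MTHFD2 (42.6), TYMS (322) and PHGDH (203), and with unshared bases, chosen after seeing the data, for MTHFD2 (71.5) and TYMS (497). The cause was not tested beyond the lengths used.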

Other observations

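A list of genes linked to the stress factor ATF4, a regulator of serine enzymes, was set beside the network. Under siRNA1 against NTC, 3 of its 10 genes were called higher by edgeR with the replicate block and none lower. Of all 18554 genes tested, 1016 were called higher, and 11.4% were called in either direction. Of the 10 genes, 3 had a log2 difference below 0. The genes called were SLC7A11, the cystine importer, by 0.64 on the log2 scale (adjusted p = 1.59e-04), DDIT3 by 0.39 (adjusted p = 0.00194) and DDIT4 by 0.75 (adjusted p = 2.32e-04). SLC7A11 lay at 8.54, 10.1 and 10.9 CPM in NTC and at 16.6, 14.8 and 14.6 CPM under siRNA1, and the groups did not overlap. For DDIT3 they overlapped, at 14.78, 17.29 and 13.92 CPM in NTC and 19.59, 23.77 and 17.26 CPM under siRNA1. DDIT4 overlapped too, at 43.3, 32.3 and 64.3 CPM in NTC and 101, 44.6 and 99.3 CPM under siRNA1. Under siRNA2 DDIT4 lay at 94.6, 43.7 and 63.1 CPM. Without the block 0 of the 10 passed edgeR's test, where 1.28% of all genes did and 1903 genes had an unadjusted p under 0.05. ATF4 itself and ASNS, asparagine synthetase, passed in neither fit of this comparison. Nor did the serine and folate enzymes PHGDH, PSAT1, PSPH, SHMT2 and MTHFD2.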
